A study of Mus musculus and Homo sapiens with 12 samples.

Results

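Recurrent butyryl regions at mouse gene ends were stretches of the genome that carried a peak of histone lysine butyrylation (Kbu) in at least 3 of 4 libraries and lay within 1 kb of either end of an annotated gene. All rows of the 4 mouse Kbu peak lists, 2 for butyrylated lysine 18 of histone H3 (H3K18bu) and 2 for butyrylated lysine 12 of histone H4 (H4K12bu), were merged into 216042 regions. Of these, 8440 were found in 3 or 4 lists, and 2944 of the 8440 lay within 1 kb of a gene end of the RefSeq annotation of GRCm38 and are called members here. The other 5496 recurrent regions, off gene ends, served for comparison. The members were thus selected on presence in the Kbu lists and on distance to a gene end, so their counts, pileups and widths are given as a description, and tests were made only on lists that the choice did not use.

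The libraries were made by CUT&Tag, in which an antibody directs a transposase to cut and tag the DNA around a histone mark. Frozen large intestine of male CETP-ApoB-100 transgenic mice, labelled as colon epithelium but homogenised whole, was used, with 2 mice per condition. The 4 Kbu libraries were labelled with a high fat, high sucrose (HFHS) diet plus 5% arabinoxylan, a fermentable cereal fiber. The 4 libraries for acetylated H3K18 and H4K12 (H3K18ac and H4K12ac, 2 each) were labelled with the HFHS diet alone, so acyl group and diet cannot be told apart. The study's methods describe a low fat group and an HFHS group given arabinoxylan, and no group that stayed on HFHS alone, so the diet of the acetyl libraries is given as labelled. The labels do not tie libraries to animals, and p-values therefore measure the spread between libraries. With 2 mice per condition, the 4 acetyl libraries would come from at most 2 mice, so they are not 4 independent animals. No library without antibody was analysed here.

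Histone lysine acylation neutralises the charge of the lysine and is read by bromodomain and other reader proteins. Acetyl groups on the same residues mark active promoters and enhancers. Butyrate, made by colonic bacteria from fiber, is the main fuel of colonocytes, an inhibitor of class I histone deacetylases and, as butyryl-CoA, the donor of the butyryl group.

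Promoters of members are shown first, because the genes they belong to recur in the results. Each run is the RefSeq GRCm38.p6 stretch from 250 bases before to 50 bases after the start site, 5′ to 3′ on the gene's strand, and capitals mark the matches to the motifs listed after it. Ctsc (cathepsin C, a lysosomal peptidase, chr7:88277835-88278134, plus strand) had at least 4 read ends in every Kbu library. Mkks (a chaperonin-like protein of the ciliary basal body, chr2:136891357-136891656, minus strand) shares its region with Slx4ip, which starts on the other strand. Etfdh (chr3:79628718-79629017, minus strand) encodes the enzyme that passes electrons from fatty acid oxidation to ubiquinone. Pex10 (a peroxisomal ubiquitin ligase, chr4:155066780-155067079, plus strand) stands for the members with no acetyl peak. Cdx2 (the homeobox factor of the intestinal epithelium, chr5:147307200-147307499, minus strand) carried more H3K18bu than H4K12bu. Zfp983 (a zinc finger gene, chr17:21650361-21650660, plus strand) carried more H4K12bu.
Ctsc: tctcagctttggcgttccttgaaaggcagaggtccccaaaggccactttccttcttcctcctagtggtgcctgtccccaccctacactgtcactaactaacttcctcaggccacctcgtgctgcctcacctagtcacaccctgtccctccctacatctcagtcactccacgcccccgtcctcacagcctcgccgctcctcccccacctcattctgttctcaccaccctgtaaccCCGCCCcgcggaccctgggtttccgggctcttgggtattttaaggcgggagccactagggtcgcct
Mkks: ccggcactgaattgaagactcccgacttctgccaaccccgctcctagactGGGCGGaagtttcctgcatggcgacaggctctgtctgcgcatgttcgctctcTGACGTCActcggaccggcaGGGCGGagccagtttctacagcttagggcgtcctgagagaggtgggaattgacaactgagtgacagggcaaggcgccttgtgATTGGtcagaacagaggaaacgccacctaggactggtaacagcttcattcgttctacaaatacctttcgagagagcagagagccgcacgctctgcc
Etfdh: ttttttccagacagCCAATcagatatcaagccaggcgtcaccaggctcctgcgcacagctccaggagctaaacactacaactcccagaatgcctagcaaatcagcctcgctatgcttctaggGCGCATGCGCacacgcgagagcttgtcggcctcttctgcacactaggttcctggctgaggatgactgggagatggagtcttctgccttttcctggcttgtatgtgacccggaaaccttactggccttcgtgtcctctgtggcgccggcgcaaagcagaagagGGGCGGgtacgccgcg
Pex10: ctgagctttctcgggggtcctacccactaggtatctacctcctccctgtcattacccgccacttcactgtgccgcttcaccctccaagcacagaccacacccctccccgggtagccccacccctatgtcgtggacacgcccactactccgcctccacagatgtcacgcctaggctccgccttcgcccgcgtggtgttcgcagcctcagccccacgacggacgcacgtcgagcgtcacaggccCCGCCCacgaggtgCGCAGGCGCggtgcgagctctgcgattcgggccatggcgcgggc
Cdx2: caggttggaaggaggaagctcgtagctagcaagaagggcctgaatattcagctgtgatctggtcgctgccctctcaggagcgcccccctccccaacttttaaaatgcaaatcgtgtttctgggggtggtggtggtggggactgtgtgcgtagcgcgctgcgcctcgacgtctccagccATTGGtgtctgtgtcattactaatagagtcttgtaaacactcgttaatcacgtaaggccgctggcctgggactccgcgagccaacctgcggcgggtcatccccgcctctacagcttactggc
Zfp983: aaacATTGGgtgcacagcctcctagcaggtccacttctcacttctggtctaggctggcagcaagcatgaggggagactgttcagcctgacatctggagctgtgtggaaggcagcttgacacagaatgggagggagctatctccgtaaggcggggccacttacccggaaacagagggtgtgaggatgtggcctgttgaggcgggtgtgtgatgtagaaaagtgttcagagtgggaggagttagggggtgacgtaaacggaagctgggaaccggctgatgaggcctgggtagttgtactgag

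The motifs searched on both strands were the GC box (GGGCGG), the CCAAT box (CCAAT), the TATA box (TATAAA), the AP-1 site (TGANTCA), the CRE (TGACGTCA), the E-box (CACGTG), the ETS site (ACTTCCGG), the NRF1 site (GCGCNTGCG) and the YY1 site (AAGATGGCG). None of these contains another whole, and matches may share bases. The Mkks run held 2 GC boxes, 1 CCAAT box and 1 CRE, and the Etfdh run held 1 GC box, 1 CCAAT box and 2 NRF1 matches that share bases. The Pex10 run held 1 GC box and 1 NRF1 site, the Ctsc run 1 GC box, and the Cdx2 and Zfp983 runs 1 CCAAT box each.

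The 1926 promoters, of 1776 genes, that overlapped a member were rich in G, C and CpG. Their median GC content was 62.0% and their median number of CpG was 22, against 52.7% and 7 over all 32851 promoters of the table. Among protein-coding genes alone the medians were 62.3% and 22 for 1610 member promoters and 56.3% and 13 for all, and a GC box stood in 69.7 and 46.2%. Over all biotypes a GC box stood in 67.1% of member promoters and in 35.7% of all promoters. An NRF1 site stood in 17.2% against 6.31%, an ETS site in 8.62% against 3.89% and a CRE in 4.72% against 1.79%. The YY1 site was found in 2.6% against 1.4% and the E-box in 9.66% against 7.15%. The CCAAT box was about as frequent in both, at 37.9% and 37.4%. The TATA box went the other way, with 5.35% of member promoters against 13.6% of all, as did the AP-1 site with 5.45% against 7.81%. Promoters whose region was found in 1 list had a median GC content of 60.0% and 19 CpG, closer to the members than to all promoters. The YY1 site and the E-box stood in 3.02 and 9.91% of them, above the shares at members.

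Recurrence and position went together. Of all merged Kbu regions 16.5% lay within 1 kb of a gene end, while 6.01% of the genome does. The share was 14.5% of regions found in 1 list, 26.9% of those found in 2, 34.1% of those found in 3 and 36.9% of those found in 4. Over the 8440 recurrent regions it was 34.9%, and with 1 Kbu library left out it lay between 30.8 and 39.5%. These shares describe lists that also chose the members. The median width also rose with the number of lists, from 185 bp in 1 list to 439 bp in 4. A region counted if any of its bases lay within 1 kb, so wider regions reach an end more easily. The 6.01% is a share of single bases, and the part of width in these shares was not tested.

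Within the 1 kb window the members crowded at the end itself. The gene end lay inside the region for 1594 members (54.1%), and a further 477 lay 1 to 250 bp away. The next bins of 250 bp held 363, 287 and 223 members. Of the 2835 members on chromosomes covered by the table of start sites, 2029 (71.6%) lay within 1 kb of a listed start site. The table lists start sites for 27025 of the 49943 genes, so the other 806 include members over starts that it does not hold, such as those of Klf5 and Rb1cc1. Start sites on both strands were present at 423 members (14.9%). Just inside the limit lay regions 1000 bp from Gm41190, Gm36373 and LOC108167553, and just outside it regions 1003 bp from Ntn5, 1004 bp from Gm30150 and 1006 bp from Gm12188. Their Kbu pileups were of the same size, between 1 and 3 read ends per list that held them.

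**Figure D1:**
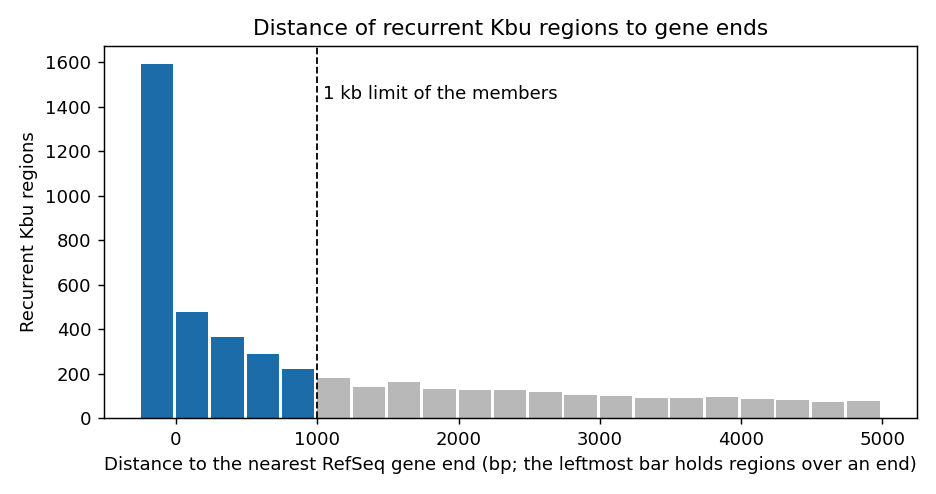
Number of recurrent Kbu regions (vertical axis) by distance in bp to the nearest gene end (horizontal axis, bins of 250 bp), with members in blue and regions beyond the 1 kb limit in grey. The counts fall from 1594 regions over an end to 223 in the last bin inside the limit.

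Members were short, with a median width of 408.5 bp and a range of 73 to 1354 bp. Those found in 3 lists had a median of 382.5 bp and those found in 4 lists 476.5 bp, and the regions off gene ends had 352 bp. P2ry1, a purinergic receptor gene, had the widest member (1354 bp), followed by Lurap1l (1282 bp) and the region shared by Baiap2l1 and Dmrt1i (1268 bp). The narrowest, 73 bp, lay near Gm30149 and LOC108167553, the latter with a pair of them. Such a width is that of 1 extended read end.

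Of the members 2078 were found in 3 lists and 866 in 4. The H4K12bu lists held more of them than the H3K18bu lists. A row was present for 2347 members (79.7%) in H3K18bu replicate 1, 2164 (73.5%) in replicate 2, 2430 (82.5%) in H4K12bu replicate 1 and 2757 (93.6%) in replicate 2. Both H4K12bu lists held 2243 members (76.2%) and both H3K18bu lists 1567 (53.2%). Off gene ends these shares were 59.6% and 67.3%, the reverse order. The lists differ in length, with 60813 and 50675 rows for H3K18bu and 50932 and 96432 for H4K12bu, and the part of depth in these counts was not tested.

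Most members rested on few reads. The pileup counts the read ends, each stretched to 73 bp, that cover a peak's summit. It was 1 in every list for 740 members (25.1%) and at most 2 for a further 1031 (35.0%). It reached 3 or 4 in 925 members (31.4%), 5 to 9 in 232 (7.88%) and 10 or more in 16 (0.543%). No list gave a q-value below 0.05 for 1993 members (67.7%), and all 4 lists did for 8. By comparison, 61.6% of the 5589 regions at gene ends found in 2 lists had a pileup of 1 in each. A member with pileups of 1 is therefore a place where 3 or 4 libraries each had a read end, not a place of measured height.

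The members with the highest lowest pileup were headed by 3 long noncoding RNA genes. The region 882 bp from the end of 2700054A10Rik (chr17:13552078-13553212) had pileups of 21 and 11 in H3K18bu and 16 and 22 in H4K12bu. It also had 46 and 60 in H3K18ac and 111 and 355 in H4K12ac, which was the highest pileup of each acetyl list, and whether reads of repeated sequence collect there was not tested. At 2410080I02Rik (chr19:23133955-23134329) the Kbu pileups were 10, 6, 6 and 7, and the 4 acetyl lists gave 15, 26, 3 and 13. A630001O12Rik followed with 6, 12, 13 and 12 in the Kbu libraries and 29, 13, 5 and 9 in the acetyl libraries.

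Protein-coding genes of this group had lower lowest pileups. Gpa33, the A33 surface glycoprotein of intestinal epithelium (chr1:166130199-166130764), had 5 and 5 in H3K18bu and 6 and 15 in H4K12bu, with acetyl pileups of 17, 15, 6 and 9. The Ctsc region (chr7:88277801-88278454), over the promoter printed above, had 4, 6, 6 and 6 in the Kbu libraries and 7, 8, 5 and 12 in the acetyl libraries. Kbu replicates of a residue differed by at most 2 read ends at Ctsc, but the H4K12bu replicates differed by 9 at Gpa33 and the H4K12ac replicates by 7 at Ctsc.

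Evl, an actin regulator of the Ena/VASP family, had 4, 4, 4 and 5. Pdlim5, a PDZ and LIM domain scaffold of the actin cytoskeleton, had 3, 4, 4 and 5. The region between Mkks and Slx4ip (chr2:136891321-136891684) had 4, 3, 4 and 6, and acetyl pileups of 4, 3, 2 and 5, a row in all 8 libraries. Acadm, the medium-chain acyl-CoA dehydrogenase of fatty acid oxidation (chr3:153944231-153944928), had 3, 3, 3 and 6. Gm4651 and Tnfsf13os were also named, each with a lowest Kbu pileup of 3, a value that members not named here shared.

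Capn2, the large subunit of a calpain protease (chr1:182517414-182517904), was the exception in this group. Its pileup was 3 in each of the 4 Kbu libraries, H4K12ac gave 4 and 5, and no H3K18ac row overlapped it. The other 11 had a row in all 4 acetyl lists. Further members tied at a lowest Kbu pileup of 3 are not among the 12. Of these, Gm35149 and Atp1b1 had no row in H4K12ac replicate 1, while a member at Gm10925 had a row in all 4.

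**Figure D2:**
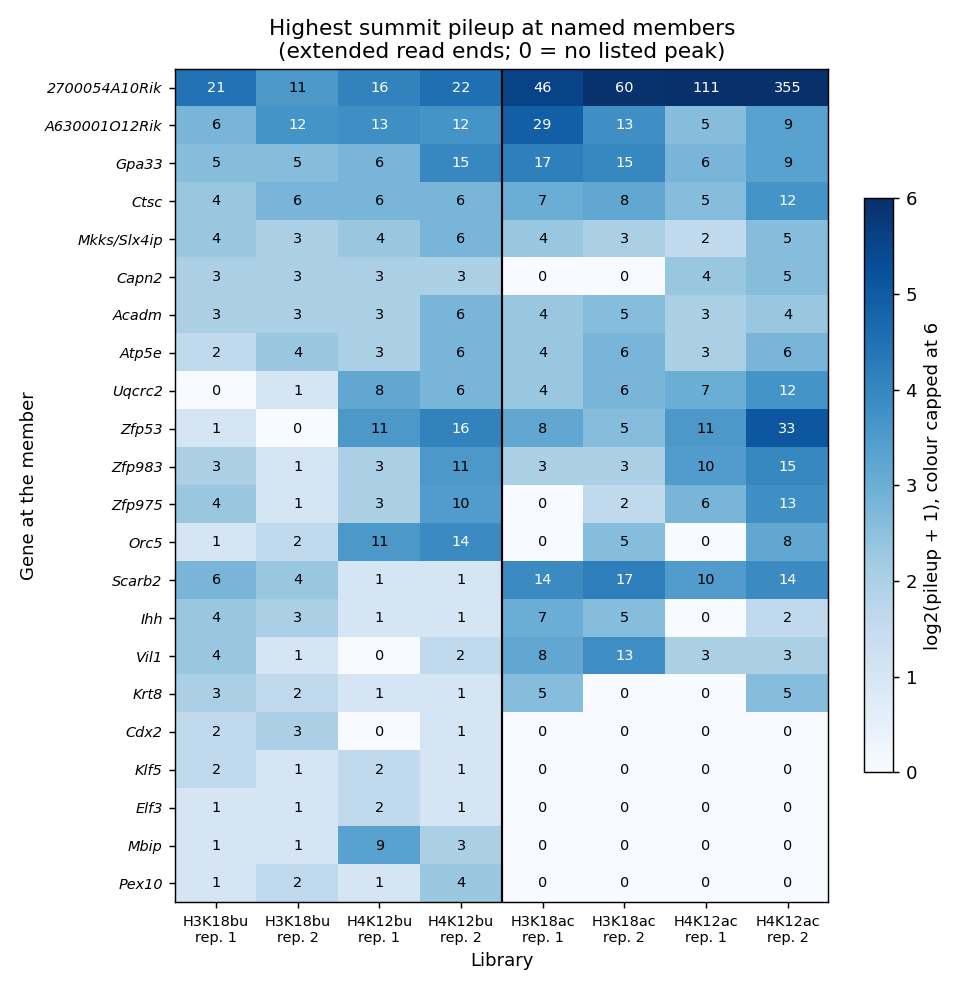
Summit pileup in read ends, with 0 for no row, in each of the 8 mouse libraries (columns) at named members (rows), with darker blue for a higher pileup on a log2 scale. Ctsc and Mkks carry values in every library, and the members of the no-acetyl group, such as Pex10, are at 0 in the 4 acetyl columns.

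Overlap with the acetyl lists was a readout that the choice of members did not use. A row of the list overlapped 2004 members (68.1%) in H3K18ac replicate 1, 1994 (67.7%) in replicate 2, 1681 (57.1%) in H4K12ac replicate 1 and 2068 (70.2%) in replicate 2. The same lists overlapped 20.2, 19.4, 14.9 and 22.0% of all merged Kbu regions. Those regions are narrower, with a median of 192 bp against 408.5 bp for members, and the part of width in this comparison was not tested. The mean over the 4 libraries was 65.8% ± 5.9 (SD, n = 4) for members and 62.5% ± 11.5 (SD, n = 4) for recurrent regions off gene ends. The member mean was 35.1% with acetyl rows of q below 0.05, 38.8% where acetyl peaks had to cover 50% of the region and 43.2% with the 50000 strongest rows of each list. All 4 acetyl lists overlapped 896 members (30.4%), and none did at 198 (6.73%). Only H3K18ac lists overlapped 372 members (12.6%) and only H4K12ac lists 247 (8.39%).

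Members and recurrent regions off gene ends did not differ in the mean over acetyl libraries beyond the spread between them. The differences were −3.02 and −1.66 percentage points in H3K18ac and 11.1 and 6.67 in H4K12ac, with a mean of 3.26 ± 6.74 (SD, n = 4; 2-sided exact permutation p = 0.5). The smallest p that 4 libraries allow is 0.125. The shares at gene ends lay below those at other recurrent regions in both H3K18ac libraries and above them in both H4K12ac libraries. With 2 libraries per mark this contrast between marks was not tested, and the mean over 4 lists changed sign under 5 of the alternatives given in the closing section.

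Members found in 4 Kbu lists overlapped acetyl peaks more often than members found in 3. The shares in H3K18ac were 80.3 and 75.4% for the former and 63.0 and 64.5% for the latter, and in H4K12ac they were 66.3 and 78.3% against 53.3 and 66.9%. The means were 75.1% ± 6.18 and 61.9% ± 5.99 (SD, n = 4). The difference lay between 10.9 and 17.3 points, higher in 4 of 4 libraries, with a mean of 13.1 ± 2.9 (SD, n = 4; exact permutation p = 0.125, the smallest possible). These members were also wider and had higher Kbu pileups, and their part in the difference was not tested beyond regions of 200 to 600 bp, where it was 11.2 points. Members near a listed start site and the other members did not differ beyond the spread, at 66.3 and 64.3% (difference 1.97 ± 3.02 points, SD, n = 4; exact permutation p = 0.375), and since start sites of many genes are not listed, this does not compare starts with far ends.

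Acetyl overlap was higher where the Kbu pileup was higher. The mean over the 4 acetyl lists was 51.1% where the highest Kbu pileup was 1, 64.2% at 2, 73.9% at 3 or 4 and 85.8% at 5 or more. The share with no acetyl row fell from 14.3 to 6.5, 2.49 and 0.806% over the same classes. At members with a row the median acetyl pileup was 3 and 4 in H3K18ac and 3 and 5 in H4K12ac, above the Kbu medians of 1, 1, 1 and 2. The lowest local background of the acetyl lists was 8.33 and 14.2 read ends in 10 kb for H3K18ac and 12.0 and 20.2 for H4K12ac, against 2 in each Kbu list, so acetyl and Kbu pileups are not levels on a common scale.

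**Figure D3:**
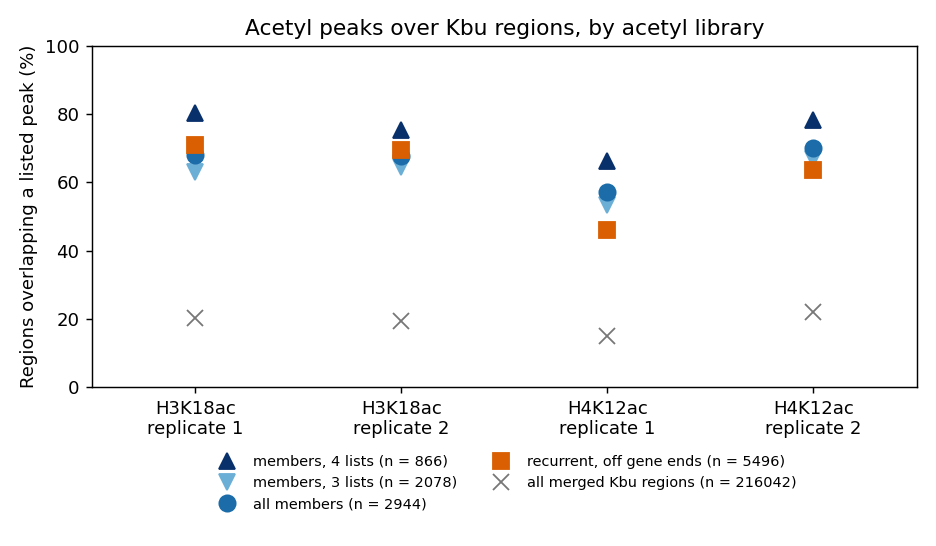
Percent of regions overlapped by a row of each acetyl list (vertical axis), with 1 point per acetyl library, for all members, members found in 3 and in 4 lists, recurrent regions off gene ends and all merged Kbu regions. Members lie between 57.1 and 70.2% and all Kbu regions between 14.9 and 22.0%.

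Of the 198 members with no acetyl row in any list, 106 had a highest Kbu pileup of 1 and 67 of 2, and the 8 with most lists and highest sums are named. Mbip, a subunit of an acetyltransferase complex, had 1 and 1 in H3K18bu and 9 and 3 in H4K12bu. Pcgf3, a Polycomb RING finger gene, had 2, 2, 1 and 5, and Gmeb2, a DNA-binding cofactor of glucocorticoid response, had 2, 1, 3 and 4. The region shared by Fam83e and Rpl18, a ribosomal protein gene, had 2, 2, 2 and 3. Apart from Mbip, these rested on at most 5 read ends in any library.

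Pex10 (chr4:155066811-155067157) had 1, 2, 1 and 4. Klf5, a zinc finger factor of intestinal crypts (chr14:99298275-99298841), had 2, 1, 2 and 1, and Glud1 with Shld2, glutamate dehydrogenase and a DNA repair factor, had 2, 2, 1 and 1. Gm32540 had 4, 3, 1 and 1, with more H3K18bu. Elf3, an epithelial ETS factor, had 1, 1, 2 and 1, and Cdx2 had 2, 3, 0 and 1, again with no acetyl row. Cdx2 was the exception among the 7 colon epithelium markers with a member, since the other 6 had a row in at least 1 acetyl list. None of the 98 promoters of such members held the ETS site, against 8.62% over all member promoters. A missing row in a list limited by its row number does not show that the mark was absent.

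The H4K12bu pileup was the higher at most members, and not at most regions off gene ends. Summed over replicates, the H4K12bu pileup was higher at 1826 members (62.0%), the H3K18bu pileup at 738 (25.1%), and 380 (12.9%) were equal. Off gene ends the shares were 38.5, 46.7 and 14.8%. Replicate 1 alone gave H4K12bu higher at 38.7% of members and H3K18bu at 31.1%, and replicate 2 gave 58.5 and 14.9%. Off gene ends replicate 1 gave 24.4 and 45.3% and replicate 2 gave 39.7 and 28.5%, so the excess of H4K12bu was larger at members in both replicates. Pileups were not scaled for depth, and H4K12bu replicate 2 is the longest Kbu list.

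The residue went with position. From members with H3K18bu higher by 3 or more to those with H4K12bu higher by 5 or more, the share near a listed start site was 61.2, 63.7, 68.0, 73.4, 78.9 and 82.0%. The share whose region covered a gene end was 48.8, 43.2, 53.2, 54.1, 61.7 and 75.6%. Promoters of members with more H4K12bu held the ETS site in 10.3% and the CRE in 5.15%, against 3.65 and 2.53% where H3K18bu was higher. GC content was alike, with medians of 62.0 and 61.7%.

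The acetyl lists, which played no part in this division, were read at the same members. Where H4K12bu was higher, a row overlapped 68.0 and 68.6% in H3K18ac and 62.1 and 74.0% in H4K12ac. Where H3K18bu was higher, the shares were 66.8 and 64.9% in H3K18ac and 47.7 and 62.3% in H4K12ac. The gap between H4K12ac and H3K18ac was −0.246 points in the former and −10.8 points in the latter, a difference of 10.6 points. At recurrent regions off gene ends the same gaps were −10.6 and −19.2 points, so the contrast was not particular to members. At members with H4K12bu higher by 5 or more, the means were 81.0% for H3K18ac and 89.0% for H4K12ac, and at those with H3K18bu higher by 3 or more they were 81.2 and 68.0%. With 2 libraries per mark, no test was made.

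**Figure D4:**
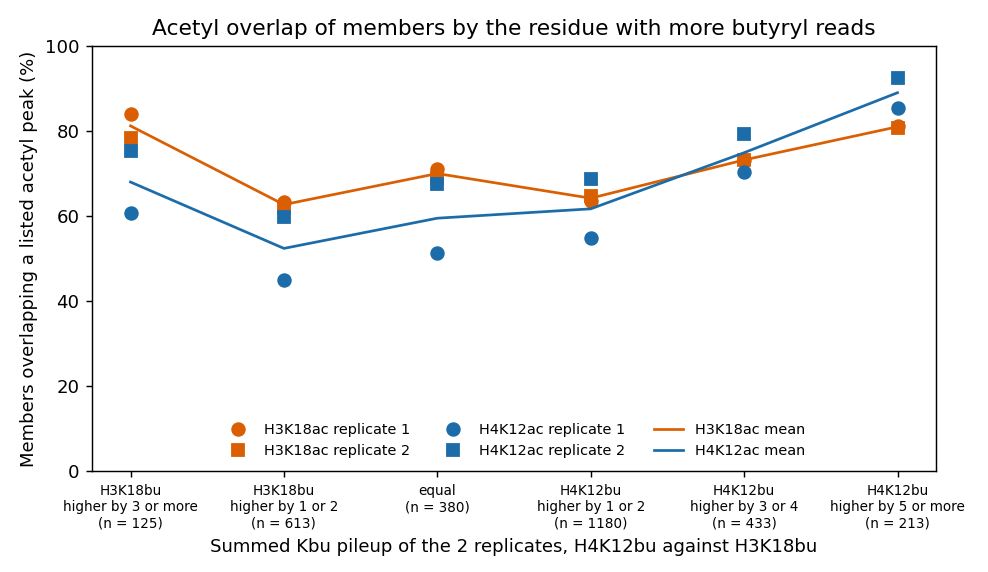
Mean percent of members overlapped by the H3K18ac and H4K12ac lists (vertical axis, 2 libraries per mark, points for single libraries) by the difference in summed pileup between H4K12bu and H3K18bu (horizontal axis). H4K12ac goes from 68.0% at the H3K18bu side to 89.0% at the H4K12bu side, while H3K18ac ends at 81.2 and 81.0%.

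The genes at the extremes of this division were picked after their values were seen. Zfp53, a zinc finger gene (chr17:21488793-21489198), had 1 and 0 in H3K18bu and 11 and 16 in H4K12bu, with 8 and 5 in H3K18ac and 11 and 33 in H4K12ac. The region of Orc5, an origin recognition subunit, and the noncoding 6030443J06Rik had 1 and 2 against 11 and 14. Uqcrc2, a core subunit of respiratory complex III, had 0 and 1 against 8 and 6. These regions were ranked on the difference between the same pileups, so separation of the residues at them was largely set by the choice. How many of all members separate in this way was not counted. Guf1, a mitochondrial translation factor, had 1 and 0 against 4 and 10, Gtpbp10, a mitochondrial ribosome GTPase, 0 and 1 against 6 and 7, and Plk4, the kinase of centriole duplication, 0 and 1 against 6 and 7.

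On the H3K18bu side the differences were smaller. Scarb2, a lysosomal membrane receptor, had 6 and 4 in H3K18bu and 1 and 1 in H4K12bu, and its acetyl pileups were 14, 17, 10 and 14. Another Scarb2 member, over the gene end (chr5:92505527-92505852), had 1 and 0 against 2 and 1 and no acetyl row. Ihh, the Hedgehog ligand of differentiated colonocytes, had 4 and 3 against 1 and 1, with 7 and 5 in H3K18ac and 0 and 2 in H4K12ac. Tspan14 had 5 and 3 against 0 and 1, and Trp53i11 had 4 and 4 against 0 and 1. Mlph had 5 and 4 against 2 and 2, and Il7 had 5 and 5 against 1 and 3. Atp1b1, a sodium pump subunit, had 5 and 6 against 3 and 3. Gm48106 (4 and 7 against 4 and 0) and 1110002J07Rik (5 and 3 against 0 and 3) had differences of like size with overlap between the residues.

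Members touched the ends of 3421 of 49943 genes (6.85%) and of 2532 of 21887 protein-coding genes (11.6%). A protein-coding end was near 2370 members (80.5%), and only noncoding genes were near the other 574 (19.5%). Long noncoding RNA genes had a member at 710 of 12727 (5.58%), of which 439 had no coding end at that region. MicroRNA genes had one at 38 of 1228 (3.09%), tRNA genes at 20 of 408 (4.9%) and pseudogenes at 66 of 9944 (0.664%). Ends of several genes were near 698 members (23.7%). Entpd6, an ectonucleotidase family gene on chromosome 2, and Gm35607 had 4 members each, the most of any gene.

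Markers of colon epithelium were the list with the highest share of member genes, 7 of 10 (70.0%) against 11.6% of all protein-coding genes. Vil1, the brush border protein villin, had 4 and 1 in H3K18bu and 0 and 2 in H4K12bu, and its other member (chr1:74435662-74436048) had 2 and 0 against 1 and 2. Krt8, an epithelial keratin, had 3 and 2 against 1 and 1, Krt19 had 3 and 1 against 0 and 1, and Lgals4, an intestinal galectin, had 4 and 1 against 1 and 0. The Krt8 and Lgals4 regions lay nearer to other genes, 340 bp from Krt78 and 15 bp from Ech1. Usp37 shared the other Vil1 region. Epcam had 0 and 3 against 1 and 1, Cdx2 2 and 3 against 0 and 1, and Cdx1 4 and 2 against 0 and 4. These genes had 8 members, and summed H3K18bu was higher at 7 of them, against 25.1% of all members, the exception being the latter Vil1 region. In replicate 2 alone it was higher at 4 and lower at 3 of the 8.

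Marker lists of other cells in the tissue held 3 to 6 genes each, too few to read a count of 0 against the 11.6% of all protein-coding genes. Absorptive colonocyte markers had 1 of 6 (16.7%), Slc16a1, the monocarboxylate transporter that carries butyrate. Goblet, stem and crypt, enteroendocrine and tuft, smooth muscle, fibroblast, immune, endothelial, enteric neuron and glia, and adipocyte markers had 0. In the acetyl lists, rows of any strength stood at an end of 9, 9, 6 and 7 of the 10 epithelial markers and of 5, 1, 5 and 2 of the 6 smooth muscle markers (Acta2, Myh11, Tagln, Des, Cnn1 and Actg2). Rows with q below 0.05 stood at 6, 4, 0 and 5 of the epithelial and 0, 0, 2 and 0 of the smooth muscle markers. Absorptive markers had rows of any strength at 5, 6, 2 and 4 of 6 genes, and stem and crypt markers at 4, 6, 1 and 3 of 6. With q below 0.05 these were 1, 3, 0 and 1, and 2, 1, 0 and 1. The remaining lists had such rows at 0 to 2 genes in any library. Rows of any strength are many in these lists, and the part of other cell types in the members was not tested.

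A pair of transcription factor lists, which share Klf5, had shares of member genes above that of all protein-coding genes. Early response factors had 11 of 28 (39.3%), among them Fosl2 and Jun of AP-1 with summed Kbu pileups of 6 and 5, Jund with 5, and Klf5 with 6. Intestinal lineage factors had 11 of 32 (34.4%), including Klf5, Elf3, Cdx1 and the endoderm factor Gata6. Acetyl rows overlapped 41.7, 41.7, 16.7 and 33.3% of the 12 members of intestinal lineage factors in the 4 lists, and 35.7, 35.7, 28.6 and 28.6% of the 14 of early response factors. The shares over all members were 68.1, 67.7, 57.1 and 70.2%, and the difference was not tested.

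Genes of butyrate handling had members at 10 of 31 (32.3%), against 11.6% of all protein-coding genes. Besides Acadm these were led by the electron transfer flavoprotein, which takes electrons from acyl-CoA dehydrogenases. Etfb had 1, 1, 3 and 6, Etfa 1, 3, 2 and 2, and Etfdh 2, 2, 1 and 3. Acetyl pileups were 4, 4, 3 and 5 at Etfb, 4, 5, 3 and 3 at Etfa, and 4, 0, 5 and 9 at Etfdh. Cpt1a, of mitochondrial fatty acid entry, and Echs1, an enoyl-CoA hydratase, were also members' genes, named here after their values were seen. Histone acyltransferases and deacetylases lay below the 11.6%, with a member at 1 of 29 (3.45%). This was Hdac2, a deacetylase that butyrate inhibits, with 2, 1, 2 and 4 in Kbu and 4, 5, 7 and 10 in the acetyl lists.

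At most members of respiratory chain genes the H4K12bu pileup was the higher. Oxidative phosphorylation had 20 of 89 genes (22.5%) with 22 members, and H4K12bu was higher at 18 of these (81.8%, against 62.0% of all members) and H3K18bu at 2. Replicate 1 alone gave 12 (54.5%) and 4, and replicate 2 gave 18 and 1. Atp5e, a subunit of ATP synthase, had 2 and 4 against 3 and 6, and Ndufs6 of complex I, whose region is shared with Mrpl36, had 2 and 2 against 5 and 4. The list of translation factors, which also held regulators such as Eef2k, Eef1akmt1 and Eif4ebp2, had 20 of 73 genes (27.4%). H4K12bu was higher at 14 of the 20 members at these genes (70.0%), near the share of all members. Among the genes were 3 kinases of eIF2, the stress sensors of translation. Eif2ak4 had 4, 2, 3 and 5, Eif2ak2 1, 2, 1 and 3, and Eif2ak3 2, 1, 1 and 3. Cytosolic ribosomal proteins, at 11 of 84 (13.1%), lay near the 11.6% of all protein-coding genes.

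Zinc finger genes named Zfp had 78 of 397 (19.6%, against 11.6% of all protein-coding genes) with a member, and 78 members. H4K12bu was higher at 66 of them (84.6%, against 62.0% of all members) and H3K18bu at 4, and replicate 1 alone gave 44 and 13 and replicate 2 gave 62 and 3. Zfp983 had 3 and 1 in H3K18bu and 3 and 11 in H4K12bu, with 3 and 3 in H3K18ac and 10 and 15 in H4K12ac. Zfp975 had 4 and 1 against 3 and 10, Zfp87 1 and 1 against 4 and 11, and Zfp959 1 and 1 against 3 and 11. Acetyl rows overlapped 73.1 and 61.5% of Zfp members in H3K18ac and 74.4 and 85.9% in H4K12ac. Their promoters had a lower GC content than those of all members, with a median of 56.3%, near the 54.8% of all Zfp promoters. They held the CCAAT box more often, in 51.6%, near the 47.5% of all Zfp promoters. Many Zfp genes lie in clusters of near-identical copies, so reads may have been placed at the wrong copy.

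Junction and signaling genes followed. Cell-substrate and adherens junction genes had 11 of 35 (31.4%), against 11.6% of all protein-coding genes. They were led by Pkp2 with 2, 2, 2 and 3 and Jup, plakoglobin, with 2, 1, 1 and 2. Tight junctions had 5 of 23 (21.7%), and Cldn3 had 1, 1, 3 and 3 in Kbu and 7, 7, 0 and 0 in the acetyl lists. At Cldn3 the higher Kbu residue was H4K12bu while both acetyl rows were H3K18ac. Fgfrl1, an FGF receptor without a kinase domain, had 1, 0, 3 and 2 with acetyl pileups of 5, 3, 0 and 0, the same arrangement. No merged region at the ends of Fgf14, Akap9 or Cyria was found in more than 2 lists.

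The remaining lists are given by counts. Actin and tubulin cytoskeleton and Wnt signaling genes each had 8 of 34 (23.5%), autophagy genes 6 of 28 (21.4%, led by Atg10 and Rb1cc1), and aminoacyl tRNA synthetases 7 of 34 (20.6%). Acyl-lysine readers and remodellers and chaperones each had 6 of 33 (18.2%), RNA polymerase II and Mediator 14 of 83 (16.9%), and splicing and RNA binding proteins 23 of 143 (16.1%). The polymerase list also counted Taf1a and Taf1d, which are factors of RNA polymerase I. TGF-beta and SMAD genes had 4 of 26 (15.4%, Ski, Smad3, Smad4 and Tgif1), mitochondrial ribosomal proteins 12 of 78 (15.4%), proteasome genes 7 of 48 (14.6%) and cell cycle genes 5 of 35 (14.3%). Below the 11.6% of all protein-coding genes lay replication-dependent histones with 5 of 65 (7.69%, some in near-identical copies such as H3c14 and H3c15), FGF genes with 1 of 19 (5.26%) and olfactory and vomeronasal receptors, genes of sensory neurons, with 3 of 1459 (0.206%). Of a list of 142 named small nucleolar RNA genes 10 (7.04%) had a member, and of all 1340 genes of that biotype 19 (1.42%).

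**Figure D5:**
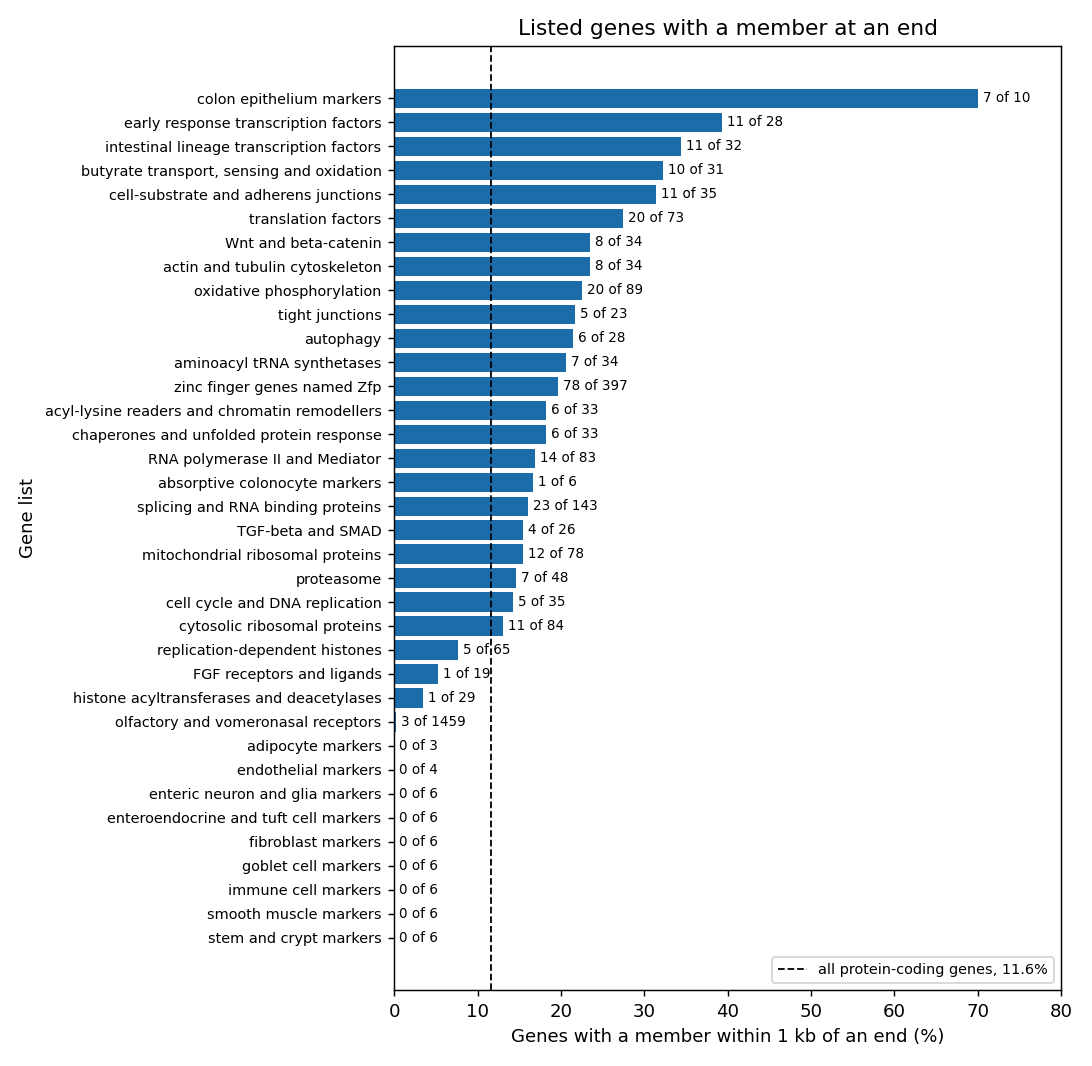
Percent of the genes of each list that had a member within 1 kb of an end (horizontal axis), with the list on the vertical axis and the share of all protein-coding genes, 11.6%, as a line. Colon epithelium markers reach 70.0%, and olfactory and vomeronasal receptors are at 0.206%.

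The share of microRNA genes with a member was 3.09%, against 6.85% of all genes. A pair of clusters known from epithelial cells is shown, picked after their values were seen. The cluster of Mir200a, Mir200b and Mir429 had a member in 3 lists with a summed Kbu pileup of 3, and Mir375 had one with 4. The region chr19:6265148-6265444, 216 bp from Mir192 and next to Mir194-2, had 3, 0, 1 and 1 in the Kbu libraries and 0, 4, 0 and 0 in the acetyl libraries. The region chr6:124718777-124719008, 387 bp from the Mir200c and Mir141 cluster, had 0, 1, 1 and 2 and no acetyl row. Their mature sequences from RefSeq are shown with the seed, bases 2 to 8, in capitals, and the 4 seeds differ. These microRNAs are known for epithelial identity, and the counts at them were low.
mmu-miR-192-5p: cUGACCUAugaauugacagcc
mmu-miR-194-5p: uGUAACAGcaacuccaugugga
mmu-miR-141-3p: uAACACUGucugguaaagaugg
mmu-miR-200c-3p: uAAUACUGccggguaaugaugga

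Genes with a mouse member were compared with Kbu peaks of a human line. CCD841 is a line of normal human colon epithelial cells, treated with 1 mM sodium butyrate, with 2 H3K18bu and 2 H4K12bu libraries. Of the mouse protein-coding genes, 15992 had a human gene of the same symbol, and 2244 of these had a member. A Kbu peak lay within 1 kb of the human start site for 42.9 and 48.6% of all 15992 genes in H3K18bu and for 29.1 and 28.1% in H4K12bu. For genes with a member the shares were 58.5, 65.5, 41.3 and 37.3%, and for the other 13748 genes they were 40.4, 45.9, 27.1 and 26.6%. The difference was 18.1, 19.6, 14.2 and 10.7 points, higher in 4 of 4 libraries, with a mean of 15.6 ± 4.01 (SD, n = 4; exact permutation p = 0.125, the smallest possible). Species, diet and culture differ together here, and the part of CpG-dense promoters in this difference was not tested.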

How the data were processed

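Mouse large intestine and butyrate-treated CCD841 cells were profiled by CUT&Tag (8 and 4 libraries). Per the paper's methods and the submitters' processing notes, the authors ran the ENCODE ATAC-seq pipeline with bcl2fastq 2.17.1, cutadapt 1.9.1, Bowtie2 2.3.1 and MACS2 2.1.0 on mm10 or hg38. Peaks were called per library without a control library. The mouse lists hold peaks with p up to 0.01 and at most 300000 rows. The deposited lists give, per peak, fold enrichment (a ratio of pileup to local background, each plus 1), −log10 p-value and −log10 q-value. Read totals are not given in the lists used here. The Kbu lists held 60813, 50675, 50932 and 96432 rows, and the acetyl lists 299840, 299861, 299778 and 299623.

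Rows sharing at least 1 bp were merged, and the pileup at each summit was solved from fold and p-value (within 0.01 for 100.0% of rows; 99.96% of 2763 simulated peaks were recovered). An overlap was at least 1 bp. Gene ends came from RefSeq GRCm38.p6, and start sites and promoters from its promoter table, which lists 27025 of the 49943 genes and no chromosome 18. CCD841 genes were matched by symbol and their start sites taken from GENCODE on hg38. Python 3.11.15, numpy 2.4.6, pandas 2.3.3, scipy 1.17.1 and bedtools 2.31.1 were used.

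Differences were tested by 2-sided exact permutation, flipping the sign of each library's difference over 4 libraries (smallest p 0.125). Regions and genes were not treated as replicates. Alternatives were stricter rows, other overlaps, windows and gene sets, and each library left out.

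Members and gene lists were chosen with earlier results of these data known. The genes named were 12 members with the highest lowest Kbu pileup over 4 lists, up to 8 with no acetyl row, up to 4 per gene list by number of lists and pileup, those the study names for these libraries, the 3 widest and narrowest, those nearest the 1 kb limit on each side, and up to 6 noncoding genes. Further members tied with the last of the 12, at a lowest pileup of 3, were left out of that group. Others named from gene lists, the residue extremes and the microRNAs were chosen after their values were seen.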

Additional observations from a re-analysis of the deposited data

Results flagged for a closer look

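The acetyl overlap of members, compared with recurrent regions off gene ends, went opposite ways for the 2 acetylated residues, with every library of each on its own side. Over the 2 H3K18ac lists the mean difference was −2.34 percentage points, with −3.02 and −1.66 in the replicates. Over the 2 H4K12ac lists it was 8.87 points, with 11.1 and 6.67. The difference between the residues was not tested. Under the alternatives run, the H3K18ac mean lay between −9.32 and −1.4 and the H4K12ac mean between 2.25 and 11.1.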

How the results depend on the processing

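The number of members, 2944, was 53 with Kbu rows of q below 0.05, 430 with rows of pileup 2 or more, 866 with all 4 lists required and 977 to 1615 with 1 Kbu library left out and 3 lists still required (1430 and 1615 without H3K18bu replicate 1 and 2, 1352 and 977 without H4K12bu replicate 1 and 2). The share of recurrent regions at a gene end, 34.9%, was 36.9% with all 4 lists, 33.3% for stretches covered by 3 lists at the same base, 28.8% with a window of 500 bp, 47.8% with 3 kb, 28.1% with protein-coding genes only and 30.8 to 39.5% with 1 Kbu library left out. The mean acetyl overlap of members, 65.8%, was 90.1% with Kbu rows of q below 0.05, 82.4% with pileups of 2 or more, 75.1% with all 4 lists and 57.2% for stretches at the same base. It was 35.1% with acetyl rows of q below 0.05, 43.2% with the 50000 strongest rows of each acetyl list and 38.8% where acetyl peaks had to cover at least 50% of the region. The difference of members from regions off gene ends, 3.26 points, turned to −1.82 (Kbu q below 0.05), −0.46 (pileup 2 or more), −0.111 (all 4 lists), −0.292 (acetyl q below 0.05) and −1.97 (50% covered), and the cause was not tested. Its other values lay between 0.577 and 5.36. The residue contrast in acetyl overlap, 10.6 points, was 16.7, 14.4, 15.9 and 14.7 with acetyl q below 0.05, pileups of 2 or more, the 50000 strongest rows and 50% coverage, 7.29 and 12.1 without Kbu replicate 2 and 1, and 9.22 to 12.0 with 1 acetyl library left out. The difference between members in 4 and 3 lists lay between 9.42 and 14.7 points, and the CCD841 difference between 13.4 and 17.3, each with the direction given in the report. Alternatives for the residue contrast, for members in 4 against 3 lists and for each acetyl residue alone were chosen after seeing the data. No paired analysis was possible because the labels do not say whether libraries of different marks with the same replicate number share a mouse. The tests run were made on differences within each library. What can be read from the members is limited, since a pileup of 1 carries no height and a missing row does not show that a mark was absent. Read totals per library are not given in the lists, and the part of depth was not tested.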
